A study of Homo sapiens with 8 samples.

Results

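The aldehyde dehydrogenases described here are 10 genes chosen by their symbols: ALDH1A1, ALDH1A3, ALDH1B1, ALDH2, ALDH3A1, ALDH3A2, ALDH3B1, ALDH7A1, ALDH9A1 and ALDH18A1. They were matched to probes through the accessions in the scanner files, and they stand among 17 symbols of this family with a probe and among 19046 genes tested. Gene expression was measured in A549, an established human lung carcinoma cell line, on 8 Agilent whole human genome arrays with a single dye. In the EEDS series, cells received the vehicle or 1.25, 5 or 20 μg/mL of EEDS, an ethanol extract of Descurainia sophia seeds, and in the other series the vehicle or 3.75, 15 or 60 nM helveticoside, a cardiac glycoside. The exposure is given as 48 h in the labels, in text on a viability assay, and as 1 day for the arrays in the study's methods. RNA from 3 cultures was pooled for each condition and each condition had 1 array, so no error between cultures could be had and a single dose carries no test.

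Aldehyde dehydrogenases oxidize aldehydes to carboxylic acids with NAD or NADP as the acceptor of electrons, and ALDH18A1 carries the family's name although it works in the other direction, reducing glutamate on the way to proline. The members differ in substrate and in place: some make retinoic acid from retinal, some clear aldehydes from lipids and from ethanol, and some serve amino acid and carnitine metabolism. A549 cells are known for high activity of ALDH1A1 and ALDH3A1, and for a KEAP1 defect that leaves the antioxidant factor NRF2 active.

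All 10 members were well above background, by the call of the scanner software, on all 8 arrays. At the top dose of EEDS, 1 member (ALDH1A3) was more than 2-fold above its vehicle control and 3 members (ALDH3A2, ALDH3B1 and ALDH7A1) were more than 2-fold below it, and at the top dose of helveticoside 0 members were above and 4 (these 3 and ALDH3A1) below. Over all genes tested, 13.4% lay past 2-fold upward and 14.6% downward at 20 μg/mL EEDS, and 10.9% and 12.9% at 60 nM helveticoside. At the middle doses, ALDH7A1 was the 1 member past 2-fold, on the lower side with both agents, beside 7.35% of all genes higher and 8.53% lower with EEDS and 7.13% higher and 8.11% lower with helveticoside. At the lowest doses 0 members were past 2-fold in either direction, beside 4.21% higher and 3.71% lower of all genes with EEDS and 3.4% and 4.34% with helveticoside. The median log2 ratio of the 10 members was -0.03, -0.53 and -0.48 from the lowest to the top dose of EEDS and 0.07, -0.45 and -0.51 for helveticoside. The median over the 11494 genes with a signal well above background on every array was between -0.01 and 0.02. Quantile normalization gives every array the same distribution, so this median over all such genes is largely set near 0 by the method.

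A dose trend was tested as the slope of the log2 signal per dose step (the vehicle as step 0 and the doses as steps 1 to 3) with limma over the 8 arrays, and p-values were adjusted by the Benjamini-Hochberg method over all 19046 genes. ALDH1A3 rose with EEDS, ALDH3A2 fell with both agents, and ALDH3B1 fell with EEDS. Rising trends were called for 7.27% of all genes with EEDS and for 5.48% with helveticoside, and falling trends for 7.9% and 5.83%, respectively. At an unadjusted p under 0.05, 5 of the 10 members had a slope with EEDS and 7 with helveticoside, beside 33.4% and 29.9% of all genes. All 10 members passed the scanner software's background call on every array, and many of the 19046 genes did not. In a limma fit of only the 11494 genes that passed it throughout, 44.2% had such a slope with EEDS and 39% with helveticoside. The member counts given here are from the fit over 19046 genes. With the fit restricted to genes well above background on all 8 arrays, with the signal as scanned, with normexp correction or with the deposited processed values, the falling calls with helveticoside went from 1 member to 5 (ALDH1A1, ALDH3A1, ALDH3A2, ALDH3B1 and ALDH7A1). In either direction, the calls over all genes with helveticoside went from 11.3% to 24.1%, 13.6%, 13.9% and 9.12% in these settings, respectively. When the lowest or the middle doses were left out, or when the 4 arrays of a series were fitted alone, 0 genes of the whole table passed, beside 4553 to 5403 genes at an unadjusted p under 0.05.

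**Figure D1:**
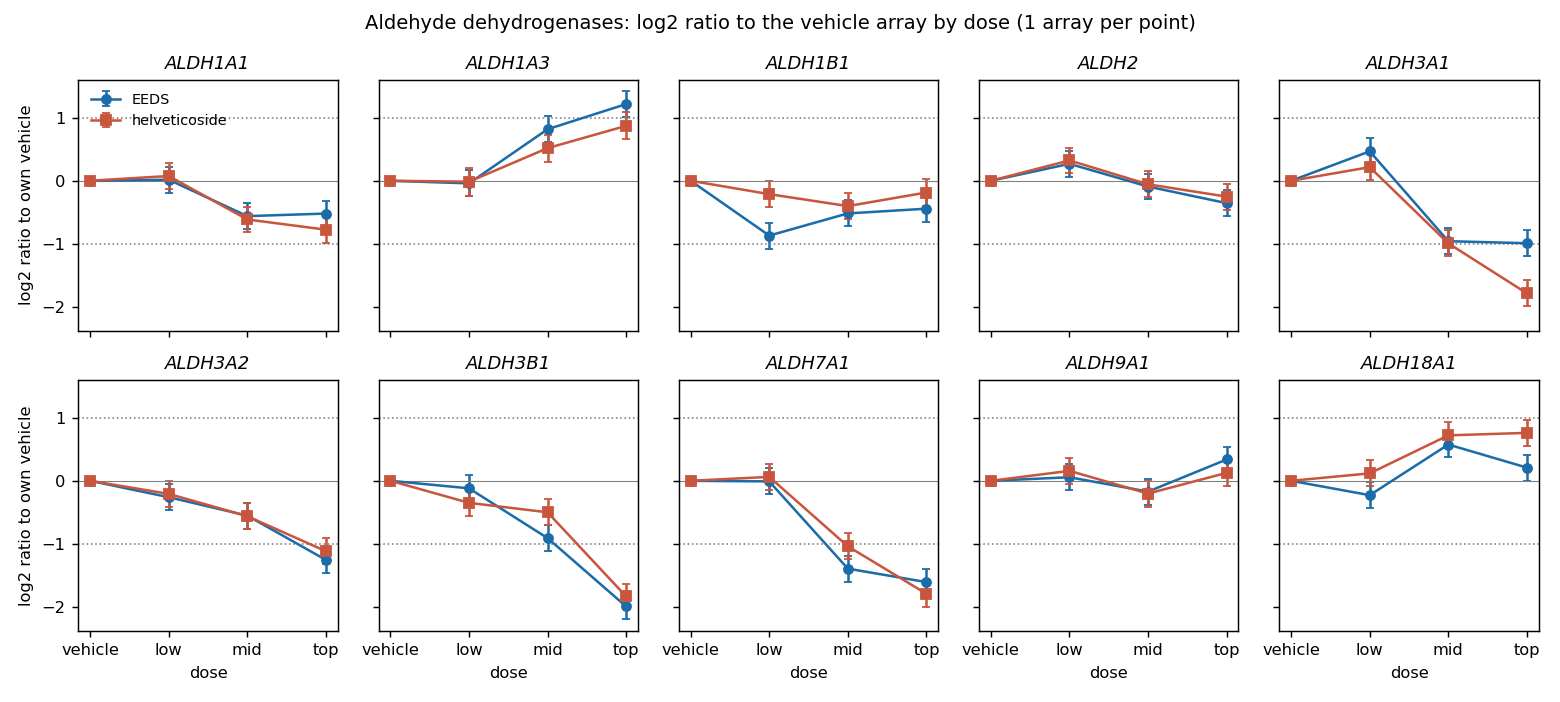
Log2 ratio of each aldehyde dehydrogenase to the vehicle control of its own series (y axis) at the vehicle, lowest, middle and top dose (x axis), with 1 array per point, for EEDS (blue circles) and helveticoside (red squares). Bars are the scanner software's error of the ratio within arrays (0.20 to 0.22), nearly a constant and no measured spread. Dotted lines mark 2-fold, and ALDH3A2, ALDH3B1 and ALDH7A1 end below the lower line in both series.

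Several measures serve as a scale for these values. The scanner software's error of a member's log2 ratio was 0.20 to 0.22, which covers the error within arrays only. It rests on an error of 10% to 10.87% of the signal for every member and array. It is thus nearly a constant and no measured spread. The median SD between spots of 1 probe was 0.069 to 0.085 (log2). Between the vehicle controls of both series, the SD of the log2 ratio over the 11494 genes well above background was 0.48, and 4.76% of these genes lay more than 2-fold apart. The members lay between -0.58 and 0.55 apart, and 0 of them differed more than 2-fold. Spot positions place the 4 arrays of each series side by side in the order of dose, so array position and dose cannot be told apart.

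The epithelial markers KRT8, KRT18, KRT19, CDH1 and EPCAM (5 of 5) were well above background on all arrays. Their summed normalized signal went from 496257 on the vehicle control to 401121, 319520 and 314344 over the EEDS doses, and from 408360 to 381636, 294973 and 262569 over the helveticoside doses, and KRT18 made up most of it. The markers differed among themselves: from the vehicle to the top dose, CDH1 went from 963 to 148 with EEDS and from 825 to 126 with helveticoside, whereas EPCAM went from 666.5 to 688 and from 627 to 524. Of the 3 markers listed for each other cell type, 1 was well above background on all arrays for blood (PTPRC, summed signal of the list 109.95 to 246), endothelium (CDH5, 137 to 234) and fibroblasts (COL1A1, 194 to 606), while CD3E, PECAM1, VWF and DCN were on no array. The part of these shifts in the members' values was not tested, and fewer cells of a kind and less RNA per cell cannot be told apart in such samples.

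The promoters of 4 members are shown because these members ended past 2-fold at the top dose in one direction or the other: ALDH1A3 above, and ALDH3A2, ALDH3B1 and ALDH7A1 below. Each is the 250 bases before the gene's start on the gene's own strand, written 5′ to 3′, from the RefSeq promoter table of GRCh38.p14, in which 8 of the 10 members were found and ALDH2 and ALDH3A1 were not listed. Capitals mark matches to 5 motifs searched on both strands.
ALDH1A3, chr15:100879581-100879830, plus strand: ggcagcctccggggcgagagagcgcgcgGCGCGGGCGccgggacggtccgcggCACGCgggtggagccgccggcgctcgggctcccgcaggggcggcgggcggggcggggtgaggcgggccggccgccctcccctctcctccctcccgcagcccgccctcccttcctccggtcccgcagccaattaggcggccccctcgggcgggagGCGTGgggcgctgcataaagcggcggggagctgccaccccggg
ALDH3A2, chr17:19647886-19648135, plus strand: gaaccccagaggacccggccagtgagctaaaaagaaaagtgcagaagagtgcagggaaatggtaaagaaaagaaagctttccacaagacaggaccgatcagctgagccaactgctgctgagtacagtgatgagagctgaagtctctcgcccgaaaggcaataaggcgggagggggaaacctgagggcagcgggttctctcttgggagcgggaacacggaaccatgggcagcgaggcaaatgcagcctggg
ALDH3B1, chr11:68008297-68008546, plus strand: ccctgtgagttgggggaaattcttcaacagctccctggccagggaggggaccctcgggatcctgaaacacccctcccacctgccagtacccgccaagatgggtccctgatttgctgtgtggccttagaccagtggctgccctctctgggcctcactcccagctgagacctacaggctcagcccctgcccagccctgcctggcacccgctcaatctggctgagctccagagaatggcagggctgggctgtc
ALDH7A1, chr5:126595220-126595469, minus strand: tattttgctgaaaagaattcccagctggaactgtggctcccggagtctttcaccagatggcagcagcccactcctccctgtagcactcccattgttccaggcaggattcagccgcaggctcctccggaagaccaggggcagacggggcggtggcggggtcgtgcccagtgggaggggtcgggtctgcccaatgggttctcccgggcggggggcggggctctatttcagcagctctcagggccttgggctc
The motifs were TGACNNNGC (the core of the antioxidant response element, found in 11% of 27305 promoters of this length), GCGTG (the core bound by the AHR, 31.9%), TGATGNAA (the core of the ATF4 composite site, 3.19%), TGANTCA (AP-1, 6.6%) and GCGNGGGCG (EGR1, 8.25%). An EGR1 match with T at its open position also holds the AHR core. Of the 8 promoters, the one of ALDH1A3 alone held a match: GCGCGGGCG from base -222 to -214 and the AHR core on both strands, from -197 to -193 and from -43 to -39. Its GC content was 82.4%, against 38.4% (ALDH1A1) to 70.4% (ALDH1B1) for the other 7 and a median of 58% over all promoters. These matches describe the letters in the window and say nothing about whether a factor was bound.

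ALDH1A3, which makes retinoic acid from retinal in the cytosol, was the riser among the members. Its log2 signal was 9.03 on the EEDS vehicle control, and at 1.25, 5 and 20 μg/mL it was 8.99, 9.85 and 10.25. Nothing moved at the lowest dose, and the top dose lay 2.32-fold above the vehicle. The slope with EEDS was 0.45 ± 0.10 (SE) per dose step with an adjusted p of 0.0366 in limma, and it no longer passed with the dose as a share of the top dose in place of the step (adjusted p = 0.0774). With helveticoside, the log2 signal was 8.46 on the vehicle and 8.44, 8.97 and 9.33 at 3.75, 15 and 60 nM. The order of the doses was the one seen with EEDS, at 1.83-fold above the vehicle for the top dose, and the slope of 0.31 ± 0.10 did not pass (limma adjusted p = 0.0966). The vehicle of the helveticoside series lay 0.58 below that of the EEDS series on the log2 scale (-0.58), and with the vehicles exchanged the log2 ratios at the top doses became 1.79 for EEDS and 0.29 for helveticoside in place of 1.21 and 0.87.

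ALDH1A1 also makes retinoic acid, and its activity is used as a marker of stem-like tumor cells. Its log2 signal was 17.44 on the EEDS vehicle control and 17.45, 16.88 and 16.92 over the doses, and 17.65, 17.72, 17.03 and 16.87 in the helveticoside series. The step lay between the lowest and the middle dose in both series, and the ratios at the top doses, -0.52 and -0.77, were inside 2-fold. The slopes were -0.21 ± 0.08 with EEDS (limma adjusted p = 0.135) and -0.30 ± 0.08 with helveticoside (0.0735), and neither passed. A dimmer probe of the same gene gave log2 ratios of -1.19 and -1.51 at the top doses, and its own slopes passed with both agents when all 24812 probes with a gene were tested singly in limma (adjusted p = 0.0238 and 0.0218). For ALDH1A1 the outcome thus depended on the probe.

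ALDH1B1 and ALDH2 are mitochondrial enzymes, and ALDH2 is the main enzyme that clears acetaldehyde after ethanol. The log2 ratios of ALDH1B1 were -0.87, -0.52 and -0.44 over the EEDS doses and -0.21, -0.40 and -0.19 over the helveticoside doses. All 6 lay below the vehicle, the lowest dose of EEDS furthest and its higher doses nearer, with no order by dose for helveticoside, and the slopes were -0.10 ± 0.13 and -0.07 ± 0.13 (limma adjusted p = 0.71 and 0.81). ALDH2 had log2 ratios of 0.27, -0.09 and -0.35 with EEDS and 0.32, -0.06 and -0.25 with helveticoside. It was above the vehicle at the lowest dose and below it at the others in both series, by less than the SD between the vehicles, and its slopes of -0.14 ± 0.09 and -0.11 ± 0.09 did not pass (limma adjusted p = 0.357 and 0.51). When arrays were scaled by the 75th percentile of their signals, which shifted the median of all genes by -0.38 at the top dose of EEDS and by -0.18 at that of helveticoside, the log2 ratio of ALDH2 at 60 nM changed sign to 0.02.

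The ALDH3 genes encode enzymes for medium- and long-chain aldehydes, such as those from lipid peroxidation. ALDH3A2, the fatty aldehyde dehydrogenase of the endoplasmic reticulum that is lost in Sjögren-Larsson syndrome, fell with both agents. Its log2 signal was 13.71, 13.45, 13.16 and 12.46 from the vehicle to 20 μg/mL EEDS. In the helveticoside series it was 13.91, 13.70, 13.35 and 12.79 from the vehicle to 60 nM. Each dose lay below the one before it in both series, and the top doses were 2.38-fold and 2.16-fold below the vehicle. The slopes were -0.40 ± 0.06 with EEDS and -0.37 ± 0.06 with helveticoside (limma adjusted p = 0.0207 and 0.0295), and they stayed past the threshold in both series with the dose as a share of the top dose (0.0247 and 0.0497). Under scaling to the 75th percentile the top doses lay at -0.96 and -0.79, inside 2-fold, and the call with helveticoside was lost (adjusted p = 0.075).

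ALDH3B1, a membrane-bound enzyme for long-chain and lipid aldehydes, lay past 2-fold below the vehicle at both top doses. The log2 signal was 12.44, 12.32, 11.53 and 10.45 from the vehicle to the top dose of EEDS. With helveticoside it was 12.58, 12.23, 12.08 and 10.75. The largest step was that from the middle to the top dose in each series, by -1.08 and -1.33, and the top doses were 3.96-fold and 3.55-fold below the vehicle. ALDH3B1 fell with EEDS, at a slope of -0.67 ± 0.15 (limma adjusted p = 0.0397). With helveticoside the slope was -0.56 ± 0.15 and did not pass at an adjusted p of 0.0698. Its other 2 probes gave log2 ratios of -1.56 and -1.82 at 20 μg/mL EEDS and of -1.30 and -1.82 at 60 nM helveticoside, all past 2-fold.

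ALDH3A1 is a cytosolic enzyme for aromatic and lipid-derived aldehydes, abundant in the cornea and induced through the AHR in other tissues. Its log2 signal was 15.26 on the EEDS vehicle and 15.73, 14.31 and 14.28 over the doses, and 14.73, 14.95, 13.74 and 12.95 in the helveticoside series. The lowest dose lay above the vehicle in both series and the middle dose below it by nearly the same log2 ratio, -0.96 and -0.99. From the middle to the top dose the log2 signal then moved by -0.03 with EEDS and by -0.79 with helveticoside, which left the top doses at -0.99 and -1.78. The slopes were -0.44 ± 0.19 and -0.65 ± 0.19 (limma adjusted p = 0.185 and 0.0912), and their difference was 0.22 with a 95% confidence interval from -0.47 to 0.90. With the vehicles exchanged between the series the ratios became -0.46 and -2.31. ALDH3A1 and ALDH3A2 lie on chromosome 17, with SLC47A2 between them in the annotation.

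**Figure D2:**
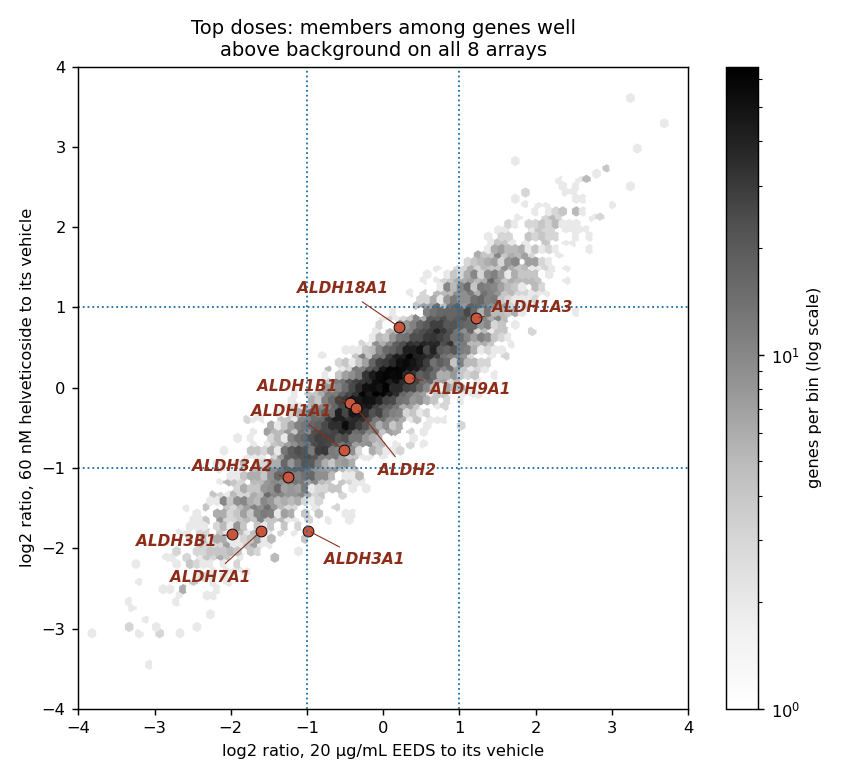
Log2 ratio at 20 μg/mL EEDS (x axis) against log2 ratio at 60 nM helveticoside (y axis) for the 11494 genes with a signal well above background on every array (grey bins, log scale of genes per bin) and the 10 aldehyde dehydrogenases (red points), with dotted lines at 2-fold. ALDH3A2, ALDH3B1 and ALDH7A1 lie in the lower left corner past 2-fold on both axes, and ALDH3A1 lies past 2-fold on the helveticoside axis.

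The other members serve amino acid and carnitine metabolism. ALDH7A1, or antiquitin, oxidizes the semialdehyde formed in lysine breakdown, and its loss causes pyridoxine-dependent epilepsy. The log2 signal of ALDH7A1 was 12.24, 12.23, 10.85 and 10.64 from the vehicle to the top dose of EEDS. With helveticoside it was 12.17, 12.23, 11.13 and 10.38. No shift was seen at the lowest doses, the middle doses lay 2.62-fold and 2.05-fold below the vehicle, and the top doses 3.03-fold and 3.45-fold. The slopes, -0.62 ± 0.15 and -0.65 ± 0.15, missed the threshold narrowly in both series (limma adjusted p = 0.0518 and 0.0548), and they passed it among genes well above background on all 8 arrays (0.0152 and 0.0164). A dimmer probe of ALDH7A1 gave a log2 ratio of -0.67 at 20 μg/mL EEDS, where the main probe gave -1.60, and one of -1.95 at 60 nM helveticoside.

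ALDH9A1 oxidizes an aldehyde on the path to carnitine. Its log2 ratios were 0.06, -0.17 and 0.34 with EEDS and 0.16, -0.20 and 0.13 with helveticoside. The middle dose was the lowest of each series, at a ratio to the vehicle inside the SD between the vehicles. The slopes were 0.08 ± 0.09 and 0.00 ± 0.09 (limma adjusted p = 0.658 and 0.998; 95% confidence intervals from -0.15 to 0.30 and from -0.22 to 0.23). The vehicle of the helveticoside series lay 0.55 above that of the EEDS series, and with the vehicles exchanged the ratio at 20 μg/mL EEDS changed sign to -0.21. ALDH18A1, the mitochondrial enzyme that starts proline synthesis from glutamate, had log2 ratios of -0.23, 0.57 and 0.21 over the EEDS doses and of 0.12, 0.72 and 0.76 over the helveticoside doses. The middle and top doses lay above the vehicle in both series, inside 2-fold, and the slopes of 0.14 ± 0.11 and 0.29 ± 0.11 did not pass (limma adjusted p = 0.456 and 0.157).

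**Figure D3:**
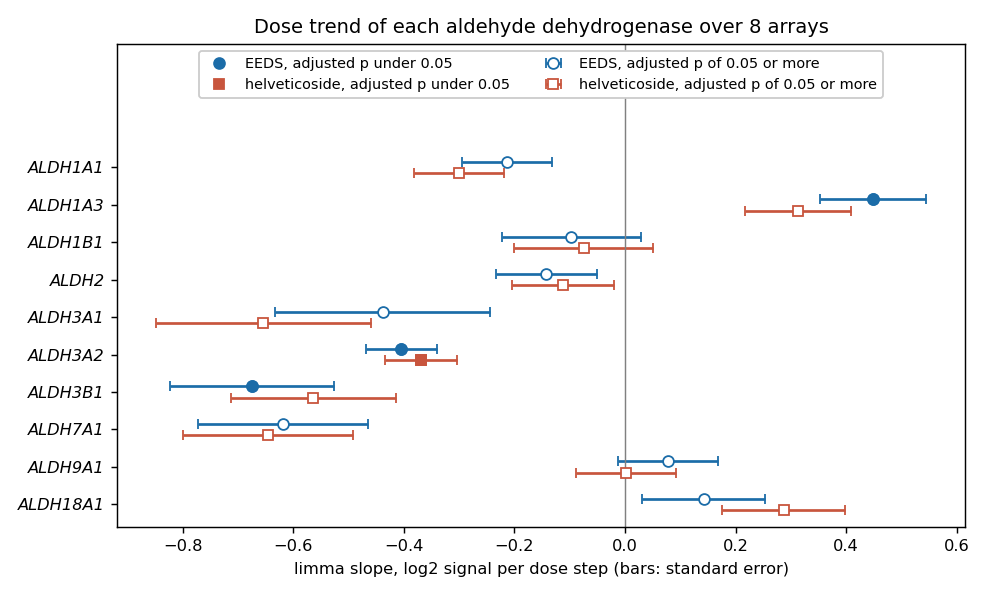
Limma slope of the log2 signal per dose step (x axis) of each aldehyde dehydrogenase (y axis) with EEDS (blue circles) and helveticoside (red squares), with bars of 1 standard error; filled symbols have an adjusted p under 0.05. Filled symbols stand at ALDH1A3, ALDH3A2 and ALDH3B1 for EEDS and at ALDH3A2 for helveticoside.

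The slopes with EEDS and helveticoside were compared within the same limma fit, with dose steps set side by side although the doses themselves are in different units. The difference passed for 0 members and for 0% of all genes, and at an unadjusted p under 0.05 it was seen for 526 genes and 0 members. The smallest unadjusted p among the members was 0.358, for ALDH1A3, whose slopes differed by 0.14 with a 95% confidence interval from -0.20 to 0.47. For ALDH3A2 the difference was -0.04 (-0.26 to 0.19), for ALDH3B1 -0.11 (-0.64 to 0.42) and for ALDH7A1 0.03 (-0.52 to 0.57). These intervals are wide beside the slopes, and a p above the threshold does not show that the agents acted alike.

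Of the 16 probes of the members, all were well above background on all 8 arrays. The 5 members with several probes (ALDH1A1, ALDH3A1, ALDH3A2, ALDH3B1 and ALDH7A1) had ratios below 0 by every probe at both top doses. Probes of ALDH1A1 fell on different sides of 2-fold with both agents and those of ALDH7A1 with EEDS, whereas those of ALDH3A2 and ALDH3B1 were past 2-fold throughout. The fall of ALDH3A2 with helveticoside was called by the brighter probe (limma adjusted p = 0.0306 over all probes) and not by the other (0.0662). All 3 probes of ALDH3B1 passed with EEDS (0.0414, 0.0318 and 0.044).

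**Figure D4:**
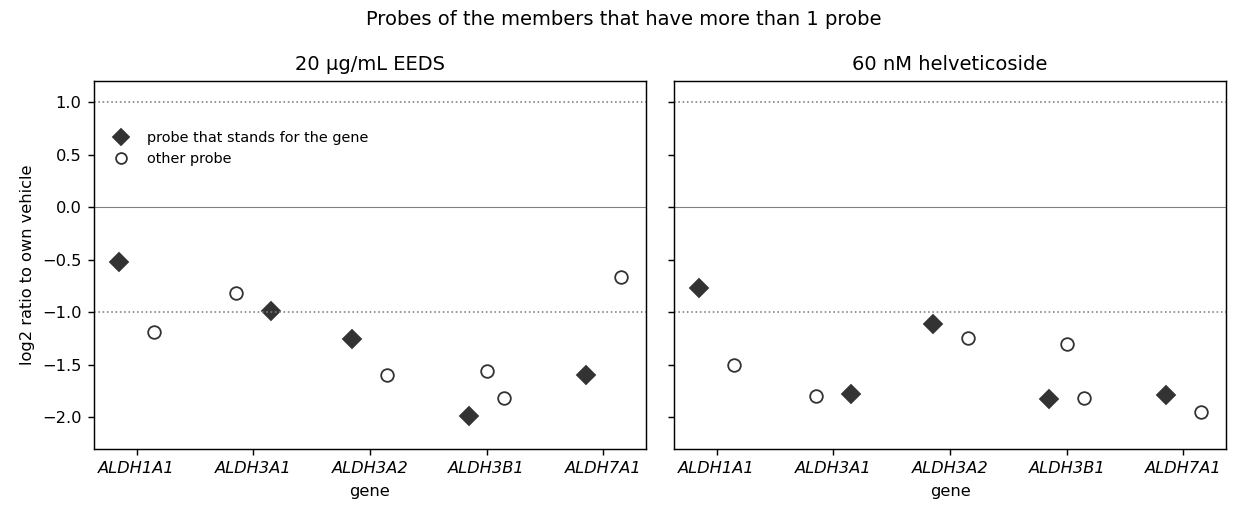
Log2 ratio to the vehicle (y axis) of every probe of the 5 members with more than 1 probe (x axis) at 20 μg/mL EEDS and 60 nM helveticoside; filled diamonds are the probe with the highest mean signal, which stood for the gene, and open circles are the others. Probes of ALDH1A1 lie on both sides of the lower 2-fold line in both panels, and those of ALDH7A1 do so with EEDS.

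The members closest to each other over the 6 log2 ratios were ALDH2 and ALDH9A1 (root-mean-square distance 0.35), followed by ALDH1A1 and ALDH3A2 (0.37) and by ALDH3A1 and ALDH7A1 (0.37). Among 11493 other genes well above background on all arrays, those most like ALDH3A2 were CFAP298 (0.054) and LPIN3 (0.077). Those most like ALDH3B1 were RNF135 (0.096) and ALKBH2 (0.14), and those most like ALDH7A1 were CYB5A (0.092) and PDCD4-AS1 (0.11). CYB5A, cytochrome b5, had log2 ratios of -0.09, -1.45 and -1.45 with EEDS and 0.09, -1.08 and -1.91 with helveticoside, beside -0.01, -1.39 and -1.60 and 0.06, -1.04 and -1.79 for ALDH7A1.

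Of the 9 other aldehyde dehydrogenases listed, 8 were tested and 5 were well above background on all arrays. A dose trend was called for 0 of the 8 with either agent, beside 15.2% of all genes with EEDS and 11.3% with helveticoside. Among the 5 well above background, 2 were more than 2-fold lower at the top dose of EEDS and 3 at that of helveticoside, and 0 were higher. ALDH5A1, the succinic semialdehyde dehydrogenase of GABA breakdown, had log2 ratios of -0.27, -0.95 and -1.16 with EEDS and 0.26, -1.03 and -1.61 with helveticoside (limma adjusted p of the slope = 0.106 and 0.0512). ALDH16A1, a family member without a settled enzyme activity, had -0.21, -0.61 and -1.04 with EEDS and 0.01, -0.28 and -1.08 with helveticoside (0.0565 and 0.0661). Their values lay past 2-fold at both top doses, as did those of ALDH3A2, ALDH3B1 and ALDH7A1, without passing the trend test.

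The genes that work beside these enzymes were described from lists. Where counts past 2-fold are given, they cover genes that were well above background on all arrays. For the same 11494 genes in all, 1643 were higher and 1861 lower at the top dose of EEDS, and 1256 higher and 1524 lower at that of helveticoside. Of the retinoid genes around ALDH1A1 and ALDH1A3 (12 of 17 tested), 2 were higher and 2 lower with EEDS and 2 higher and 1 lower with helveticoside, with medians of -0.09 and 0.04. The retinoic acid receptor gene RARA rose with both agents, at log2 ratios of 1.69 and 2.03 at the top doses (limma adjusted p = 0.0168 and 0.0185). The retinol transporter gene STRA6 fell with both, at -1.15 and -1.13 (0.0314 and 0.0384), while RXRB at 1.02 and 0.87 and RDH10 at -1.27 and -0.42 did not pass. RARB, another retinoic acid receptor gene, was well above background on 7 arrays and is thus outside the counts past 2-fold. RARB fell with EEDS at -3.18 (limma adjusted p = 0.041) and lay at -1.79 with helveticoside without passing (0.145). The receptor gene RARG lay above the vehicle at both top doses and passed with neither agent. By the trend test, 1 of the 17 rose and 2 fell with EEDS, and 2 rose and 1 fell with helveticoside. Over all genes tested, 7.27% rose and 7.9% fell with EEDS, and 5.48% rose and 5.83% fell with helveticoside.

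In the list of alcohol dehydrogenases and amine oxidases, 3 of 11 genes were well above background on all arrays. AOC3, a copper amine oxidase, lay at log2 ratios of 4.17 and 3.31 at the top doses and rose with both agents (limma adjusted p = 0.0174 and 0.0256). MAOA, the monoamine oxidase, fell with EEDS at -2.08 (0.0305) and lay at -1.42 with helveticoside without passing (0.0607). ADH5, the formaldehyde-clearing dehydrogenase, lay at -0.48 and -0.59 and passed with neither agent. By the trend test, 2 of the 11 rose and 1 fell with EEDS, ADH1A among the risers although it was well above background on no array, and 1 rose and 0 fell with helveticoside. Beside these counts stand 7.27% of all genes rising and 7.9% falling with EEDS, and 5.48% and 5.83% with helveticoside.

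Of the 8 proline and glutamate semialdehyde genes around ALDH18A1, 7 were well above background on all arrays, with medians of -0.50 and -0.81 at the top doses. PYCR3, the cytosolic pyrroline-5-carboxylate reductase, fell with both agents, at -2.31 and -1.67 (limma adjusted p = 0.0134 and 0.0245). PRODH, which breaks proline down, fell with EEDS at -2.11 (0.045) and lay at -0.82 with helveticoside (0.291). GLUL at -1.06 and -0.81 and OAT at -0.50 and -0.92 did not pass, so that 2 of the 8 fell with EEDS and 1 with helveticoside, and 0 rose with either. Falling trends were called for 7.9% of all genes with EEDS and for 5.83% with helveticoside.

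Among the 12 genes for fatty aldehyde, carnitine and lysine steps around ALDH3A2, ALDH9A1 and ALDH7A1, 7 were well above background on all arrays and 0 had a trend with either agent. Trends in either direction were called for 15.2% of all genes with EEDS and for 11.3% with helveticoside. FAR1, which reduces fatty acyl-CoA to fatty alcohol, lay at -1.36 and -1.14 at the top doses, SPHK2 at -1.22 and -0.83, and the fatty acid hydroxylases CYP4F11 at -0.87 and -0.93 and CYP4F12 at -0.51 and -0.95. The median of the list at the top doses was -0.68 and -0.83.

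ALDH3A1 stands among the genes known to answer to NRF2 and to the AHR, and both systems were listed. Of 11 NRF2 genes, 2 fell with EEDS and 1 with helveticoside and 0 rose, beside falling trends for 7.9% and 5.83% of all genes. GCLC, the catalytic subunit of glutathione synthesis, fell with both at log2 ratios of -1.47 and -1.55 (limma adjusted p = 0.0144 and 0.0175). AKR1B10 at -1.13 and -1.78 and AKR1C1 at -0.98 and -1.08 did not pass. Of the 10 well above background on all arrays, 9 lay below the vehicle at the top dose of EEDS and 8 at that of helveticoside. Of all 11494 genes with such a signal, 5802 and 5597 lay below the vehicle at these doses, respectively. TXNRD1 lay above the vehicle with both agents, at 0.92 and 0.53, and HMOX1 lay at -0.22 and 0.06, and neither passed. The probe of NFE2L2, the gene of NRF2 itself, was well above background on no array, and its log2 ratios lay between -0.009 and 0.014. A probe without signal cannot tell a low RNA level from a probe that misses the gene's transcripts. The level of NFE2L2 is therefore not known from these arrays. Of 5 AHR genes tested, 2 rose with EEDS and 1 with helveticoside, beside rising trends for 7.27% and 5.48% of all genes. TIPARP rose with both, at 3.05 and 2.37 (limma adjusted p = 0.0178 and 0.0306). CYP1A1, well above background on 3 arrays only, rose with EEDS at 5.22 and lay at 1.21 with helveticoside (0.0191 and 0.387). AHR lay at 0.98 and 1.04, ARNT at 0.84 and 0.73 and CYP1B1 at 0.34 and -1.26, without passing. Whether these shifts bear on ALDH3A1, at -0.99 and -1.78, was not tested.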

How the data were processed

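The files that the authors deposited for 8 arrays of A549 cells give, spot by spot, the scanned median intensity, the background around the spot and a processed intensity with that background subtracted. A further deposited table holds intensity values processed by the authors; its ranks match the median signal minus background (Spearman correlation of at least 0.99997), and its medians show that each series was normalized apart. It served as an alternative. The labels give the dye as Cy5, while the scanner columns carry the prefix of the green channel. Arrays were assigned by agent and dose from the labels.

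Outlier spots (246 to 331 per array) were dropped, processed signals of the remaining spots were averaged per probe, quantile-normalized over the 8 arrays and log2-transformed. Of 34127 probes, 22 had only outlier spots on an array, and 24812 matched 19056 genes of GRCh38.p14, used for names and promoter sequences. Each gene took its brightest probe by mean signal. A gene was kept when its median signal was at least 1.4 times that of the surrounding background on 1 or more of the 4 arrays of each series (19046 genes). In the main setting, a value under this limit was raised to the lowest detected signal of its array where it lay lower. This floor can shape the ratios of weak probes. Probes of different genes differ in brightness, so levels are not compared between genes. The median probe signal was 182 to 278 over a background of 27 to 34, 0 spots were saturated, and the median SD between spots of 1 probe was 0.069 to 0.085 (log2). Precision is limited by the small number of arrays.

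Ratios set each dose against its own vehicle control. The trend model was fitted in R 4.3.3 using limma 3.58.1 with its trend and robust options (statmod 1.5.0); each series had its own slope and intercept, which left 4 residual degrees of freedom, so p-values measure the scatter of pooled arrays about a line, and adjusted over 19046 genes with a threshold of 0.05. The fit was tested on simulated data in which 200 of 19046 genes changed: the EEDS slope called 91 genes, of which 87 were changed, and found 68% of slopes of 1 and 19% of slopes of 0.5; the helveticoside slope called 103, of which 97 were changed, and found 72% and 25%. The simulated noise was normal and independent between genes and arrays. In the data, trends were called for 15.2% of genes with EEDS and 11.3% with helveticoside, a larger share than was changed in the simulation. The simulated rates therefore need not hold for these data. Python 3.11.15 with numpy 2.4.6 and pandas 2.3.3 gave the other values.

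The members, lists, markers and motifs were chosen with earlier results of these data known, so counts over them are descriptions. The genes named are the members, the other aldehyde dehydrogenases past 2-fold at both top doses, up to 4 genes of each other list with the largest mean absolute log2 ratio at the top doses among those well above background on all arrays, and the 2 genes most like each member past 2-fold in one direction at both top doses. Counts and exceptions outside this rule are stated where they occur. ALDH3B2, DHRS9 and AHRR were not analysed here. The values of 1 gene named by this rule are not reported here. Alternatives tried were scaling to the 75th percentile, normexp correction (offset 50), the signal as scanned, the deposited values, other filters, probes and fold thresholds, the other series' vehicle control, limma without trend and robust estimation, the dose as a share of the top dose, and fits without a dose or with 4 arrays.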

Additional observations from a re-analysis of the deposited data

How the results depend on the processing

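The counts of members past 2-fold at the top doses stayed within 1.5 times their values under other background corrections, scalings, filters, probe choices and controls; at a threshold of 3-fold, 0 members in place of 1 were higher with EEDS, and at 1.5-fold, 2 in place of 0 were higher with helveticoside. The trend calls depended more on the setting. The members with a falling trend with helveticoside, 1 as reported, were 5 with the signal as scanned, 5 with normexp correction, 5 with the deposited values, 5 among genes well above background on all arrays, 2 with the dose as a share of the top dose and 2 when every probe was tested on its own, an alternative chosen after seeing the data. Over all genes, the trends called with helveticoside in either direction, 2153 as reported, were 2591, 2642, 1661 and 2773 in the first 4 of these settings (9.12% to 24.1% of the genes tested in them). The members with a rising trend with EEDS went from 1 to 0 with the dose as a share of the top dose. Without the lowest doses, without the middle doses and with the 4 arrays of a series fitted alone, 0 members rose with EEDS, 0 fell with EEDS and 0 fell with helveticoside, where 0 of all genes passed; those fits have fewer residual degrees of freedom. Over all genes, the trends called with helveticoside became 821 with the dose as a share of the top dose, and the 2889 with EEDS became 4604 with the deposited values. No slope difference was called for a member in the fits of both series together; it was not computed for the 4 arrays of a series alone or for single probes.

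The log2 ratio of each member at each top dose gave 20 values per setting. All 20 moved by less than the SD between the vehicles under each of 5 settings, and 6 moved further with the vehicles exchanged (ALDH1A3, ALDH3A1 and ALDH9A1 with both agents). The sign changed for 1 of 20 under scaling to the 75th percentile and for 1 of 20 with the vehicles exchanged. That scaling shifted the median of all genes by -0.21, -0.22 and -0.38 over the EEDS doses and by 0.13, -0.09 and -0.18 over the helveticoside doses. No paired analysis was possible because each condition had 1 array and no replicate numbers.

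With 1 array of pooled RNA per condition, single doses carry no error between cultures, and the trends rest on the scatter of 8 arrays about lines in the dose step.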

Other observations

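ALDH1L2, the mitochondrial formyltetrahydrofolate dehydrogenase, was chosen after its values were seen because it peaked at the middle dose in both series: its log2 ratios were 0.25, 1.60 and 0.45 with EEDS and 0.36, 1.51 and 0.52 with helveticoside, and it was well above background on all 8 arrays. PYCR1, a pyrroline-5-carboxylate reductase of proline synthesis, had -0.16, 1.04 and 0.29 with EEDS and -0.18, 0.91 and 0.43 with helveticoside. ALDH18A1, which acts before PYCR1 on the same path, had its highest ratio at the middle dose with EEDS (0.57) and a ratio at the top dose of helveticoside close to that at the middle dose (0.76 and 0.72). None of these 3 genes had a dose trend in limma, which fits a straight line in the dose step. Each value is 1 array of pooled RNA.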
